A study of Mus musculus with 38 samples.

Results

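Crystallins are the main soluble proteins of the eye lens. Alpha-crystallins belong to the small heat shock proteins and act as chaperones that hold unfolding proteins in solution, whereas beta-crystallins are structural proteins built from Greek key folds. Several crystallins are also made in the retina, and Cryab is expressed in many tissues outside the eye. The transcripts described here were listed by identifier as the main transcripts of Cryaa and Cryab, the alpha-crystallins, and of Cryba1 and Crybb2, beta-crystallins of the acidic and basic type. Of the 4 listed identifiers, 3 had a row among the 142699 Ensembl transcripts of the deposited table: ENSMUST00000019192 (Cryaa), ENSMUST00000034562 (Cryab) and ENSMUST00000031295 (Crybb2). ENSMUST00000000740, listed for Cryba1, was not analysed here. The table holds identifiers without gene names, so the names are those of the list, and other transcripts of these genes could not be added.

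The libraries were bulk RNA sequencing of mouse retina in 5 groups of 3. Of these, 4 were Kdm3b wild type, aged 1, 6, 12 or 18 months, and the fifth was Kdm3b heterozygous, aged 12 months, with Kdm3b encoding a demethylase of lysine 9 on histone H3. The sources used here name no allele, strain or treatment. Whether the replicates came from different animals is not stated in the labels, and p-values therefore refer to the spread among these samples alone, which may be technical. Fewer cells of a type and less RNA per cell cannot be told apart in such libraries.

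Total counts ran from 9568801 to 32851304 per library, and the deepest was replicate 1 of the heterozygous group. In 4 libraries, all wild type, many transcripts were missing: 2 at 1 month (replicates 2 and 3), 1 at 6 months (replicate 2) and 1 at 18 months (replicate 1). Among transcripts whose mean count reached 20, these libraries lacked 18.8% to 28.6%, and the other 11 lacked 4.61% to 14.2%. The counts are estimates that share reads between overlapping transcripts, so a 0 may reflect reads assigned to an overlapping transcript. All 7 values of Cryaa above 0 and all 13 of Cryab were fractional (0.004 or more from a whole number), as were 8 of the 12 of Crybb2. Lists of lens, photoreceptor, glial and pigment epithelium markers were kept by gene symbol and could not be matched to the identifiers, so the tissue label was not checked with them.

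Cryaa lies on chromosome 17 at 31677931 to 31681730 and Crybb2 on the minus strand of chromosome 5 at 113058258 to 113070117, as annotated by RefSeq on GRCm38.p6. Cryab lies on chromosome 9 at 50745951 to 50756636. The 250 bases before the RefSeq starts of Cryaa (chr17:31677681-31677930, plus strand) and Crybb2 (chr5:113070118-113070367, minus strand) are shown because these transcripts were high in the same 3 libraries, described below. The RefSeq start may differ from that of the transcripts measured. Capitals mark matches on either strand to TGCTGA, the core of Maf binding sites, and to TATAAA or TATATA, forms of the TATA box.
Cryaa: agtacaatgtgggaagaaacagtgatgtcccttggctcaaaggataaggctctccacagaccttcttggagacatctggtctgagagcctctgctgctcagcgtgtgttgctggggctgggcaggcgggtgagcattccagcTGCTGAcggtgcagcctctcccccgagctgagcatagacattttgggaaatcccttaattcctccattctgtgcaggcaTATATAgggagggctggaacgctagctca
Crybb2: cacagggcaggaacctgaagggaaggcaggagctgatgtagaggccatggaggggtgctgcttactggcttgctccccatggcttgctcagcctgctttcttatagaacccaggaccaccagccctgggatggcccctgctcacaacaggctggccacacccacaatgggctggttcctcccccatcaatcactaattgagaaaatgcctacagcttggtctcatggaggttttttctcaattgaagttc
The Cryaa window held TGCTGA at 108 to 103 bases before the start and TATATA, which reads the same on both strands, at 29 to 24 bases before it. The Crybb2 window held none of these letters. Among 32817 RefSeq windows of this length, 16.1% held TGCTGA, 12.4% TATAAA and 5.25% TATATA.

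Levels are given as CPM, counts relative to the TMM-scaled library total, and compare 1 transcript between libraries only. Cryaa, the alpha-crystallin largely restricted to lens, was present in 7 of 15 libraries and listed at 0 in the other 8. At 6 months it reached 152 CPM in replicate 2 and 140 CPM in replicate 3, yet had 0 reads in replicate 1. In heterozygous retina it was at 51 CPM in replicate 1 and at 0 in replicates 2 and 3. Those 3 libraries stood far above all others. Low levels were found at 12 months in wild type replicates 1 (3.9 CPM) and 2 (1.31 CPM), with 0 reads in replicate 3. At 18 months replicate 1 had 0 reads and replicates 2 and 3 held 3.83 and 4.04 CPM. All 3 libraries at 1 month had 0 reads. A count of 0 allows up to 3 reads, which is 0.0996 to 0.345 CPM depending on the library, counting error only.

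The group mean of Cryaa was highest at 6 months, at 97.4 ± 84.5 CPM (SD, n = 3 in each group), followed by heterozygous retina at 17 ± 29.4 CPM. Wild type at 18 months had 2.62 ± 2.27 CPM and at 12 months 1.74 ± 1.99 CPM, and the youngest retinas had 0 reads. Neighbours in this order overlapped, and each of the upper 4 groups contained a library without a read. Replicate 2 at 6 months alone held 40.6% of all Cryaa reads in the 15 libraries.

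Crybb2, a basic beta-crystallin of the lens that is also reported in retinal neurons, showed the same kind of split. It was above 3 reads in 9 libraries and had 0 or 1 read in the other 6. At 6 months it was at 0.0508, 72.7 and 137 CPM in replicates 1 to 3, and in heterozygous retina at 59.6, 0 and 0.115 CPM. The highest values came from the libraries that were high in Cryaa. The values at 1 month were 0, 31.8 and 17.8 CPM, those of wild type at 12 months 13.2, 1.2 and 0.111 CPM, and those at 18 months 0, 7.89 and 12 CPM. Every group thus held at least 1 library with 0 or 1 read and at least 1 above 10 CPM. The means were 70.1 ± 68.7 CPM at 6 months, 19.9 ± 34.4 CPM in heterozygous retina and 16.6 ± 16 CPM at 1 month (SD, n = 3 in each group). Lower means of 6.61 ± 6.08 CPM and 4.84 ± 7.27 CPM were found for wild type at 18 and 12 months. No neighbours in this order were separated.

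Cryab, the small heat shock protein also called HspB5, was the steadiest of the 3. It was present in 13 of 15 libraries, between 1.62 and 13.2 CPM. The values at 6 months were 5.38, 1.94 and 13.2 CPM in replicates 1 to 3, and those of wild type at 12 months were 1.62, 4.37 and 11 CPM. At 18 months it was at 6.59, 7.18 and 3.78 CPM, and in heterozygous retina at 5.28, 6 and 12.8 CPM. Both libraries without Cryab were replicates 2 and 3 at 1 month, which belong to the 4 with many missing transcripts and which did hold Crybb2; replicate 1 of that age was at 3.95 CPM. The order of the means was heterozygous (8.01 ± 4.12 CPM), 6 months (6.84 ± 5.77 CPM), 18 months (5.85 ± 1.82 CPM), 12 months (5.66 ± 4.82 CPM) and 1 month (1.32 ± 2.28 CPM; SD, n = 3 each), and all neighbours overlapped. What the missing transcripts contributed to the 0 values was not tested.

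**Figure D1:**
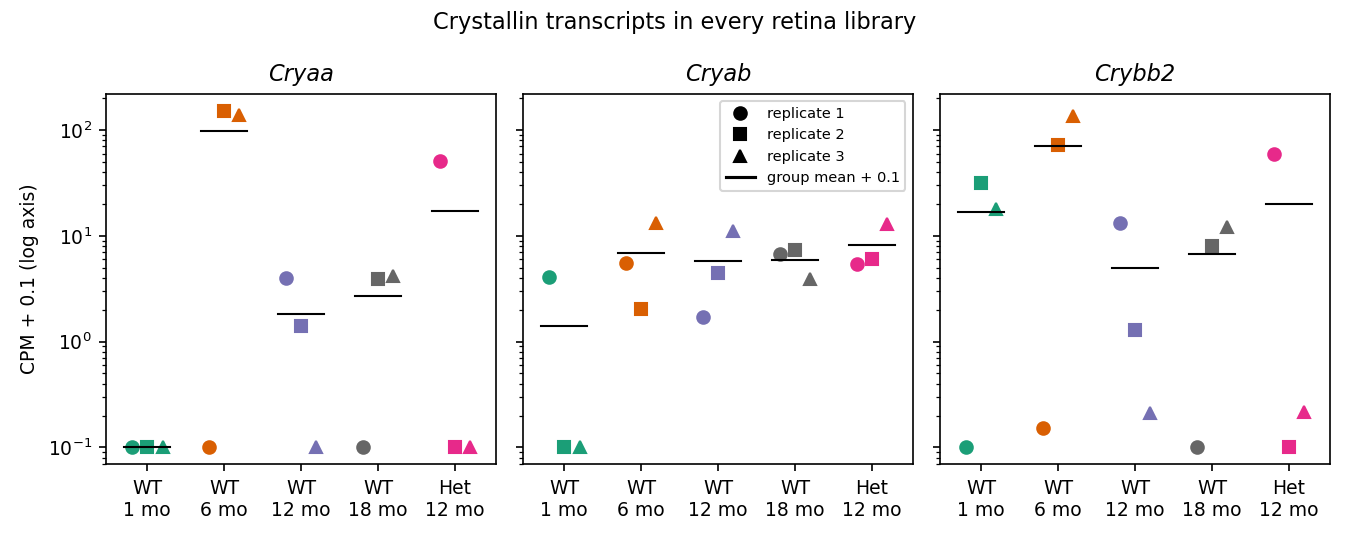
Level of Cryaa, Cryab and Crybb2 as CPM + 0.1 on a log axis in each of 15 libraries, by group (WT, wild type; Het, Kdm3b heterozygous; mo, months), with symbols for replicates and bars for group means; points at 0.1 are 0 reads. Cryaa and Crybb2 spread over the whole axis within single groups, up to 152 and 137 CPM at 6 months, while the 13 values of Cryab above 0 stay between 1.62 and 13.2 CPM.

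The spread within groups was measured as the pooled SD of log2 CPM around group means, and set beside transcripts whose mean level was within 2-fold. For Crybb2 it was 4.36, larger than in 99.7% of 8852 such transcripts, whose median was 0.6. Cryaa had an SD of 3.91, larger than in 98.9% of 8837 transcripts with a median of 0.59. Cryab had an SD of 1.61, close to the median of 1.63 for its 12242 neighbours in level, and larger than in 49.3% of them, but 0.98 without replicate 1 at 1 month, which leaves 2 libraries of that age at 0. Libraries of 1 group thus differed far more in Cryaa and Crybb2 than in most transcripts of their level, whereas Cryab, with all 15 libraries, was near the median for its own, lower level. These are descriptions without a test.

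Cryaa and Crybb2 were present or absent in largely the same libraries. In the 6 libraries with 0 or 1 read of Crybb2, which include at least 1 of every group, Cryaa had 0 reads throughout and Cryab was at 3.95 to 12.8 CPM. In the 9 libraries with more than 3 reads of Crybb2, Cryaa was present in 7. The exceptions were replicates 2 and 3 at 1 month, with 31.8 and 17.8 CPM of Crybb2 and 0 reads of Cryaa. In the other 7 the ratio of the CPM values, Cryaa over Crybb2, ran from 0.295 in replicate 1 of wild type at 12 months to 2.09 in replicate 2 at 6 months. The libraries therefore fell into separate clusters, and correlations were computed only within the 9 libraries with Crybb2.

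Within those 9, log2 levels of Crybb2 and Cryaa had Pearson's r = 0.53 and Spearman's rho = 0.56 (two-sided exact permutation test, p = 0.142 and 0.122, adjusted over 3 pairs 0.213 and 0.219). Without the 2 libraries farthest from the median of Crybb2, r was 0.46. The 4 libraries with many missing transcripts include both at 1 month among the 9. Without those 4, r was 0.95 over 6 libraries (exact permutation test, adjusted p = 0.00833). Group means were not removed in these correlations, so differences between groups enter them. Crybb2 and Cryab showed r = 0.01 and rho = 0.04 (exact permutation p = 0.99 and 0.922, adjusted 0.99 and 0.922), and r = -0.11 without the 2 farthest.

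Cryaa and Cryab had r = 0.77 and rho = 0.53 (exact permutation p = 0.0154 and 0.146, adjusted 0.0463 and 0.219), or r = 0.86 without the 2 farthest. That relation included the 2 libraries at 1 month in which both were at 0. It no longer passed without replicate 2 at 1 month (r = 0.68, exact permutation adjusted p = 0.0867), without replicate 3 (r = 0.68, adjusted p = 0.173), or without all 4 libraries with missing transcripts (r = 0.62, adjusted p = 0.335). It also missed the threshold without replicate 3 at 6 months (exact permutation adjusted p = 0.157), replicate 1 at 12 months in either genotype (0.0774 in wild type, 0.0979 in heterozygous) or replicate 3 at 18 months (0.067). Among the 6 of the 9 libraries from wild type at 1, 6 and 18 months, which share a similar depth, r was 0.82 (adjusted p = 0.267). The 12-month libraries held too few with Crybb2 for a value.

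**Figure D2:**
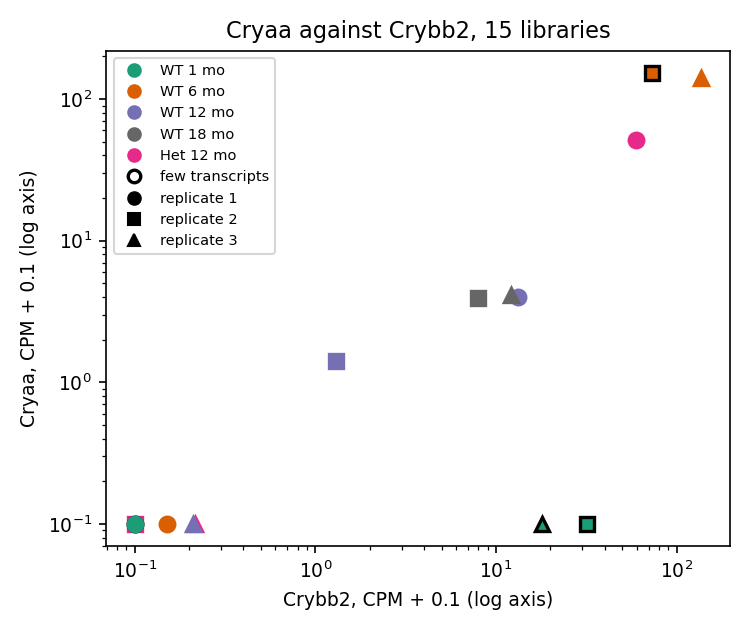
Cryaa against Crybb2 in 15 libraries, both as CPM + 0.1 on log axes, coloured by group, with symbols for replicates and black outlines for the 4 libraries with many missing transcripts. The 6 libraries with 0 or 1 read of Crybb2 lie in the lower left corner, where those with 0 reads coincide. The 2 outlined points at the bottom right are replicates 2 and 3 at 1 month, with 31.8 and 17.8 CPM of Crybb2 and 0 reads of Cryaa.

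Transcripts with a similar pattern were looked for among the others with a mean of at least 1 CPM, using Pearson's r of log2 CPM over the 15 libraries as the measure of likeness. Many of these values rest on which libraries hold 0 reads, and they are descriptions. By likeness to Crybb2, Cryaa ranked 104 of 37529 transcripts (r = 0.77) and Cryab 29936 (r = -0.39). By likeness to Cryaa, Crybb2 ranked 32 (r = 0.77) and Cryab 10493 (r = 0.2). The 2 transcripts closest to the mean pattern of the 3 crystallins were ENSMUST00000032709 (r = 0.865) and ENSMUST00000110963 (r = 0.845). Both were detected in all 3 libraries that were high in Cryaa, at 1.83 to 6.57 CPM and 4.49 to 13.3 CPM. They were also present, at partly the same levels, in libraries low in Cryaa. ENSMUST00000032709 was at 1.53 and 2.25 CPM in replicates 2 and 3 at 18 months and at 1.97 CPM in wild type replicate 2 at 12 months. ENSMUST00000110963 was at 4.24 and 5.93 CPM in replicates 2 and 3 at 18 months and at 0.406 CPM in replicate 1 at 6 months.

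Single transcripts lay closer to Crybb2 than Cryaa did. Of 37527 transcripts, 5 had r above 0.95 with it, at 0.976 to 0.993, and the next was at 0.948. ENSMUST00000228716 (r = 0.993) and ENSMUST00000040592 (r = 0.986), the closest 2 and chosen after the values were seen, are not paired with gene names here. ENSMUST00000228716 was at 294 and 436 CPM in replicates 2 and 3 at 6 months, 182 CPM in heterozygous replicate 1, and 74 and 97.5 CPM in replicates 2 and 3 at 1 month. It had 0 reads in all 6 libraries with 0 or 1 read of Crybb2. ENSMUST00000040592 was at 23.8 and 35.5 CPM, 22.1 CPM, and 16.2 and 8.73 CPM in the same libraries, and had at most 1 read in those 6. All 5 had at most 1 read there, and 3 of them were above 3 reads in all 9 libraries with Crybb2. As the 5 were picked by likeness to Crybb2 over these same libraries, the shared pattern largely follows from that choice. The number of close counterparts depended on the limit: above 0.95 there were 0 for Cryaa and 3 for Cryab, above 0.9 there were 9 for Crybb2, 0 for Cryaa and 84 for Cryab, and above 0.8 there were 67, 20 and 696.

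**Figure D3:**
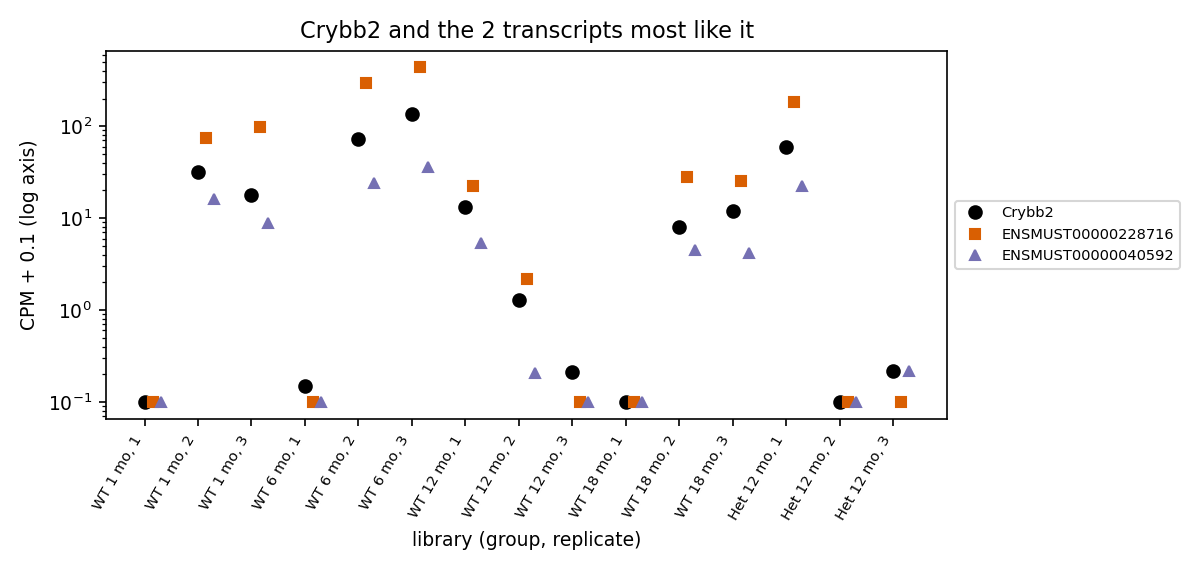
Levels of Crybb2 and of the 2 transcripts most like it, as CPM + 0.1 on a log axis, in the 15 libraries by group and replicate; points at 0.1 are 0 reads. The 3 sets of points rise and fall over the same libraries, with r = 0.993 and 0.986, and heights are not comparable between transcripts because length was not taken into account.

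The first comparison asked whether heterozygous retina at 12 months differed from wild type of that age. Cryaa was at 17 CPM against 1.74 CPM, a 9.78-fold higher mean, and Crybb2 at 19.9 CPM against 4.84 CPM, 4.11-fold higher. Replicate 1 of the heterozygous group alone carried both high means: without it Cryaa was at 0 reads, at least 5.59-fold lower than wild type, and Crybb2 was at 0.0575 CPM. Cryab was at 8.01 CPM against 5.66 CPM, 1.41-fold higher, and 5.64 CPM without heterozygous replicate 3. Wild type libraries moved the folds as well. Without wild type replicate 1 Cryaa was 25.9-fold and Crybb2 30.3-fold higher, and without wild type replicate 3 Cryab was 2.67-fold and Cryaa 6.52-fold higher. Without either of heterozygous replicates 2 and 3 Cryaa was 14.7-fold higher.

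On the log2 scale the fitted differences, heterozygous minus wild type, were 3.27 with an approximate standard error of 2.72 for Cryaa, 2.03 with 2.61 for Crybb2 and 0.5 with 1.58 for Cryab. None of the 3 passed edgeR's quasi-likelihood test (adjusted p = 1 each), where 0% of 53952 transcripts passed. Without heterozygous replicate 1 the sign turned, to -7.84 for Cryaa and -6.33 for Crybb2, values that depend on the small count added by the fit. Cryaa and Crybb2 also turned with limma voom, which weights libraries, to -0.82 and -1.63. Before adjustment, 0 of the 3 had a p under 0.05 with edgeR, as did 1.34% of all transcripts, and 0 were called by DESeq2 (0.464% of transcripts) or voom (0.161%). The groups overlapped for all 3, against 8.15% of 37530 transcripts without overlap. The median of the 3 differences was 2.03, against 0.025 over all transcripts tested. At 12 months depth moved with these values, since heterozygous replicate 1 held 32851304 counts against 10289551 and 9568801 in the others. In wild type of that age, replicate 1 was likewise the deepest, at 16009261 counts against 9732001 and 9604683, and held the highest Cryaa (3.9 CPM) and Crybb2 (13.2 CPM) of its group. At the other ages it did not: at 6 and 18 months the deepest library was replicate 1 (19531015 and 19405272 counts). Both of these had 0 reads of Cryaa and 0 or 1 read of Crybb2. At 1 month the shallowest library, replicate 2 (17169253 counts), held the highest Crybb2 of its group (31.8 CPM). The part of depth in the result was not tested.

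Between 6 months and 1 month, Cryaa went from 0 reads in 3 libraries to a mean of 97.4 CPM, at least 619-fold higher, although 1 library at 6 months also had 0 reads. Crybb2 was 4.23-fold higher at 6 months, at 70.1 CPM against 16.6 CPM, and Cryab 5.2-fold higher, at 6.84 CPM against 1.32 CPM. The bound for Cryaa was at least 446-fold without replicate 2 at 6 months and at least 929-fold without replicate 1, while Crybb2 was 2.2-fold higher without replicate 3 at 6 months and 7.87-fold without replicate 2 at 1 month. None of the 3 passed edgeR (adjusted p = 1 each, 0% of all transcripts passing). With edgeR, 1 of the 3, Cryaa, had an unadjusted p under 0.05, as did 4.53% of all transcripts. DESeq2 called Cryaa (adjusted p = 1.21e-09, where DESeq2 called 1.2% of transcripts) and voom called 0 of the 3 (0% of all). Over the alternatives the adjusted p of Cryaa ran from that value to 1. The log2 difference from DESeq2 was 25.2 (standard error 3.54), fitted against a group with 0 reads in every library.

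Cryab passed edgeR for 6 months against 1 month when replicate 1 at 1 month was left out (adjusted p = 0.0476, range over the alternatives 0.0476 to 1). This left the 2 libraries of that age with many missing transcripts and 0 reads of Cryab, giving at least 44.9-fold. With replicates 1 and 2 or 1 and 3 at 1 month the fold was 3.46, and without replicate 3 at 6 months it was 2.78. Leaving out the 4 libraries with missing transcripts kept only replicate 1 at 1 month, with 0 reads of Crybb2. The log2 difference was then 13.09 for Crybb2, against 2.08 with all 15 libraries. For Cryab it was 1.22, against 2.37. With all 15 libraries the groups of all 3 crystallins overlapped, against 7.42% of transcripts that did not. The median log2 difference was 2.37, against 0.051 over all transcripts.

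For 12 against 6 months in wild type, Cryaa was 56.1-fold lower and Crybb2 14.5-fold lower in mean level, with log2 differences of -5.78 (approximate standard error 3.05) and -3.84 (2.82). Both 6-month means rested on replicates 2 and 3, since replicate 1 had at most 1 read of either. Without replicate 1 at 12 months the folds were 149 and 107, and without replicate 3 at 6 months Crybb2 was 7.52-fold lower. Cryab was 1.21-fold lower, a log2 difference of -0.27 (1.57), and turned to 1.55-fold higher without replicate 3 at 6 months and 1.12-fold higher without replicate 1 at 12 months. In the other direction, without replicate 3 at 12 months it was 2.28-fold lower. The test called 0 of the 3 (edgeR adjusted p = 1 each, 0% of all passing), with 0 under 0.05 before adjustment (4.46% of all transcripts) and 0 by DESeq2 (1.16%) or voom (0.117%). All 3 overlapped, against 17.4% of transcripts that did not, and their median log2 difference was -3.84, against 0.133 over all. These and the other age comparisons share libraries.

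For 18 against 12 months in wild type, the means of each transcript lay close together: Cryaa at 2.62 against 1.74 CPM (1.51-fold higher), Crybb2 at 6.61 against 4.84 CPM (1.37-fold) and Cryab at 5.85 against 5.66 CPM (1.03-fold). The log2 differences were 0.56, 0.44 and 0.05, with approximate standard errors of 2.53, 2.53 and 1.57, so an interval this wide leaves large differences possible in either direction. Without replicate 1 at 12 months Cryaa was 4-fold higher and Crybb2 10.1-fold higher, and without replicate 1 at 18 months Cryaa was 2.26-fold higher. The order of the means turned for Crybb2 without replicates 2 or 3 at 12 months or replicate 3 at 18 months (1.01-, 1.09- and 1.23-fold lower). It turned for Cryab without replicates 1 or 2 at either age (1.31- and 1.08-fold lower for those at 12 months, 1.03- and 1.09-fold lower for those at 18 months). Its widest move was to 1.95-fold higher, without replicate 3 at 12 months. Again 0 of 3 passed edgeR (adjusted p = 1 each, 0.00185% of all passing), 0 were under 0.05 before adjustment (2.97% of all) and 0 were called by DESeq2 (0.787%) or voom (1.9%). Overlap was present for all 3, against 18.3% of transcripts without it, with a median log2 difference of 0.44 against 0 over all.

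Between 18 months and 1 month in wild type, none of the 3 passed edgeR, and the means are given as values. Cryaa had 2.62 CPM at 18 months against 0 reads at 1 month, at least 16.7-fold higher. Cryab was at 5.85 against 1.32 CPM, 4.44-fold higher, and Crybb2 at 6.61 against 16.6 CPM, 2.5-fold lower, or 1.35-fold lower without replicate 2 at 1 month and 4.2-fold lower without replicate 3 at 18 months. The log2 differences were 2.15 for Cryab (approximate standard error 1.64) and -1.32 for Crybb2 (2.56). The edgeR adjusted p was 0.839 for Cryaa and 1 for the others (0.00185% of all passing), and 0 were under 0.05 before adjustment (5.91% of all). DESeq2 called Cryaa (adjusted p = 7.22e-06, with 1.45% of transcripts called), with a log2 difference of 19.85 fitted against 0 reads. By voom 0 of the 3 were called (0.00741% of all). Over the alternatives the adjusted p of Cryaa ran up to 1.

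Cryab passed edgeR for 18 months against 1 month without replicate 1 at 1 month (adjusted p = 0.0445, range over the alternatives 0.0445 to 1; at least 38.4-fold higher), again against 2 libraries with 0 reads and many missing transcripts. Without the 4 libraries with missing transcripts, replicate 1 was the only library at 1 month. The log2 difference of Cryab was then 0.47 and that of Crybb2 turned to 10.31, against 0 reads, and neither passed edgeR (adjusted p = 1 each). Crybb2 also turned with voom, to 1.38. All 3 overlapped, against 14% of transcripts that did not, and their median log2 difference was 2.15 against 0.16.

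A test for any difference among the 4 wild type ages called 0 of the 3 with edgeR (adjusted p = 1 each, 0% of all passing). With edgeR, 1 of the 3, Cryaa, had an unadjusted p under 0.05, as did 3.59% of all transcripts, and 0 were called by DESeq2 (0.184% of all) or voom (0.0297%). Libraries of 1 age, 6 months, ranged from 0 to 152 CPM in Cryaa and from 0.0508 to 137 CPM in Crybb2.

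**Figure D4:**
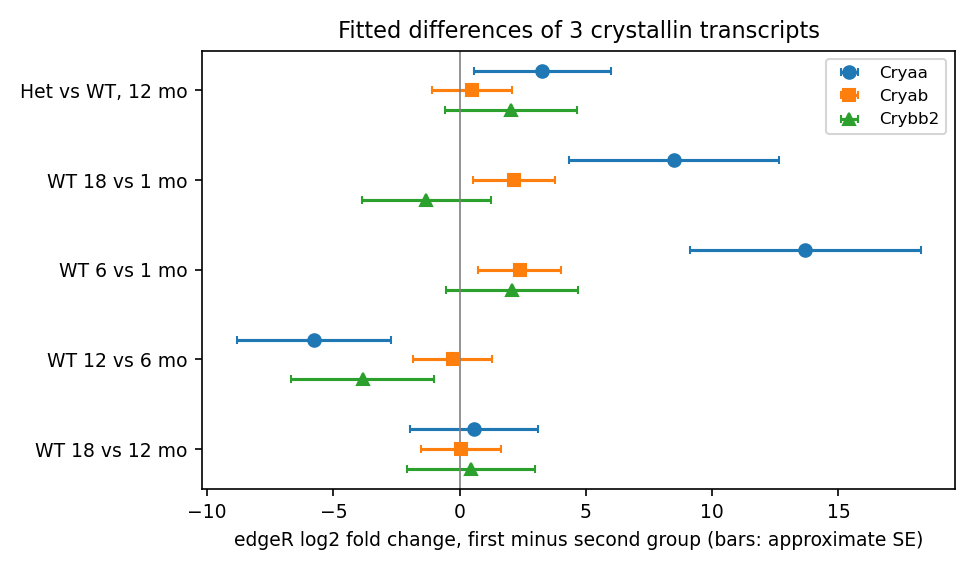
Log2 fold changes of Cryaa, Cryab and Crybb2 from edgeR in 5 comparisons, first minus second group, with bars for the approximate standard error; values of Cryaa against 1 month are fitted against 0 reads and depend on the small count added by the fit. Estimates run from -5.78 for Cryaa at 12 against 6 months up to those fitted against 1 month, and none of the 15 passed the adjusted threshold.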

How the data were processed

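The authors deposited 1 table of expected counts per Ensembl transcript, estimated and not scaled between libraries. Tools listed in the submitters' processing notes, with no role or order, are RSEM 1.3.3, edgeR 3.36.0, STAR 2.7.1a, DESeq2 1.32.0, CASAVA and Trim Galore 0.6.6, and the builds are GRCm38 and mm10. The sources used here give neither the annotation release nor how strand was set. Per the labels' protocols, polyadenylated RNA was used. The single-cell and chromatin samples were not analysed here.

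Counts were rounded and fitted over all 15 libraries with edgeR 4.0.16 (R 4.3.3): TMM, the filter on low counts (53952 transcripts kept, among them all 3 crystallins), robust quasi-likelihood, 1 mean per group, 10 residual degrees of freedom, Benjamini-Hochberg adjustment at 0.05. Standard errors are approximate, from the log2 fold change divided by the root of F. Alternatives used DESeq2 1.42.0 and limma 3.58.1. Log2 CPM had a prior count of 2. Correlations used scipy 1.17.1. The fit was tested only on simulated counts with a much smaller spread between libraries than these data. That test does not tell which crystallin differences could be found here. Identifiers matching the gene name tables numbered 0, because the deposited identifiers are of transcripts and those tables hold identifiers of genes. Named transcripts were the members, the 2 closest to their mean pattern and 2 chosen after seeing values. The members and lists were chosen with earlier results of these data known. No libraries of a group agreed within counting noise: for the closest, wild type at 12 months (replicates 2 and 3), the squared difference was 8.95 times that expected from counting.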

Additional observations from a re-analysis of the deposited data

How the results depend on the processing

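Besides leaving out each of 15 libraries, 11 other settings were run. Of 138 counts of crystallins called, 134 stayed at the reported value and 4 moved: DESeq2 called 1 for 18 and 1 for 6 months against 1 month, and leaving out 1 library gave 0 to 1 in both. Of 338 fold changes, 317 had the same sign and the same call, 4 became calls and 17 changed sign, none of the 17 being a call. With voom these were -0.82 (Cryaa) and -1.63 (Crybb2) for heterozygous retina, 1.38 (Crybb2, 18 against 1 month) and -0.08 (Cryab, 18 against 12 months). Without the 4 libraries with missing transcripts they were 10.31 and -0.04 for the last 2, with a lone library at 1 month whose spread was taken from the remaining groups. Leaving out 1 library gave ranges of -7.84 to 4.71 (Cryaa) and -6.33 to 4.94 (Crybb2) for heterozygous retina, -1.19 to 0.63 (Cryab, 12 against 6 months), and -0.39 to 0.96 (Cryab) and -0.32 to 3.31 (Crybb2) for 18 against 12 months. Over 51 alternatives, leaving out 1 library included, the pooled SD within groups ran from 3.02 to 4.12 (Cryaa), 0.98 to 1.7 (Cryab, lowest without replicate 1 at 1 month) and 3.85 to 4.59 (Crybb2).

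The correlation of Crybb2 with Cryab was -0.02 with a prior count of 0.5 and -0.02 with median-ratio scaling, and -0.27 to 0.21 leaving out 1 library. That of Cryaa with Cryab was 0.62 without the 4 libraries, 0.82 within wild type at 1, 6 and 18 months, and 0.68 to 0.88 leaving out 1. For Crybb2 with Cryaa it was 0.95 without the 4 libraries and 0.38 to 0.7 leaving out 1. The cause was not tested. A minimum of 10 CPM removed Cryab. When only the groups compared were fitted, the filter on low counts removed Cryaa for 6 and for 18 months against 1 month. Those settings therefore covered only the remaining crystallins.

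With the replicate number as a block, 0 crystallins passed in any comparison, and for heterozygous retina the log2 fold changes were 2.42 (Cryaa), 0.48 (Cryab) and 1.69 (Crybb2). Whether replicate numbers pair the samples was not tested. Deviations from group means correlated above 0.1 in 2 of 30 pairs that share a number (lowest -0.165, highest 0.288). The best match of a library in the other groups had its own number in 8 of 15 cases. Some such matches arise without any pairing, and that share was not computed. Pairs with different numbers were not counted either, so these values do not tell whether the numbers pair the samples.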
